A study of Mus musculus with 40 samples.

Results

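Saline-treated control mice of a cocaine study were compared at 2 times after self-administration. The question was whether ribosome-bound RNA of D1 neurons differed between animals sampled 24 hours and about 1 month after the last saline session. Libraries 1570 to 1575 made up the 24-hour saline group (n = 6) and libraries 1590 to 1594 the 1-month saline group (n = 5). These 11 libraries, of 40 in the series, were chosen by their saline and time labels. No gene passed an adjusted p of 0.05 between the groups in edgeR's quasi-likelihood test, either over all 11 libraries or without libraries 1573 and 1574, which stood apart from the rest.

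Adult mice of the line Drd1-TRAP CP73 were used for every group. In this line an EGFP-tagged ribosomal protein, Rpl10a, is made under the control of the D1 dopamine receptor gene. The labels give the background as FVB/N-Swiss Webster, crossed for at least 9 generations to C57BL/6. The mice had long-access intravenous sessions, in which the saline groups earned saline. Tagged polysomes were pulled down with anti-EGFP antibodies from the dissected accumbens nucleus, and the labels call each library immunopurified. They do not give sex, age in weeks, or the number of animals behind a library, so n counts libraries and the p-values measure the spread between these libraries. Each time has its own set of libraries, so time and library set coincide and cannot be told apart. Cocaine mice of the same line were sampled at the same times, in a nonescalating (n = 9 and 11) and an escalating group (n = 5 and 4). They served here only for a test of whether the time difference in saline mice differed from theirs.

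Medium spiny neurons are the GABAergic projection neurons that make up most neurons of the accumbens. Those with D1 receptors also make dynorphin and substance P, and those with D2 receptors make enkephalin. Because the tag is made in D1 cells, the pulled-down RNA is meant to be rich in D1 neuron messages, with RNA of other cells carried along to some degree. No input RNA was among the libraries, so that degree was not measured, and fewer cells of a type cannot be told apart from less RNA per cell.

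Total gene counts lay between 3772630 and 12926295 at 24 hours and between 10484101 and 33932469 at 1 month, the lowest in library 1573 and the highest in library 1594. Libraries 1573 and 1574 had 70.3% and 51.1% of their uniquely placed reads outside annotated features, against 20.3% to 26.3% in the other 24-hour libraries and 18.7% to 28.8% at 1 month. Their median correlations with the other saline libraries were 0.683 and 0.633, against 0.790 to 0.896 for the remaining 9. Between the times, none of 5 library measures differed by an exact two-sided permutation test (adjusted p 0.254 to 0.509, n = 6 and 5; the smallest raw p this design allows is 0.00433). Rn45s, the precursor of ribosomal RNA, made up 3.25% to 9.05% of the counts at 24 hours and 5.33% to 10.1% at 1 month. Y-linked genes were present in every library, with summed levels between 49.6 and 135 CPM (counts scaled to a common library total with edgeR's TMM factors). Xist, which is expressed from the inactive X chromosome of females, stood at 14.1 CPM in library 1573 and at 2.83 CPM or less in the other 10.

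**Figure D1:**
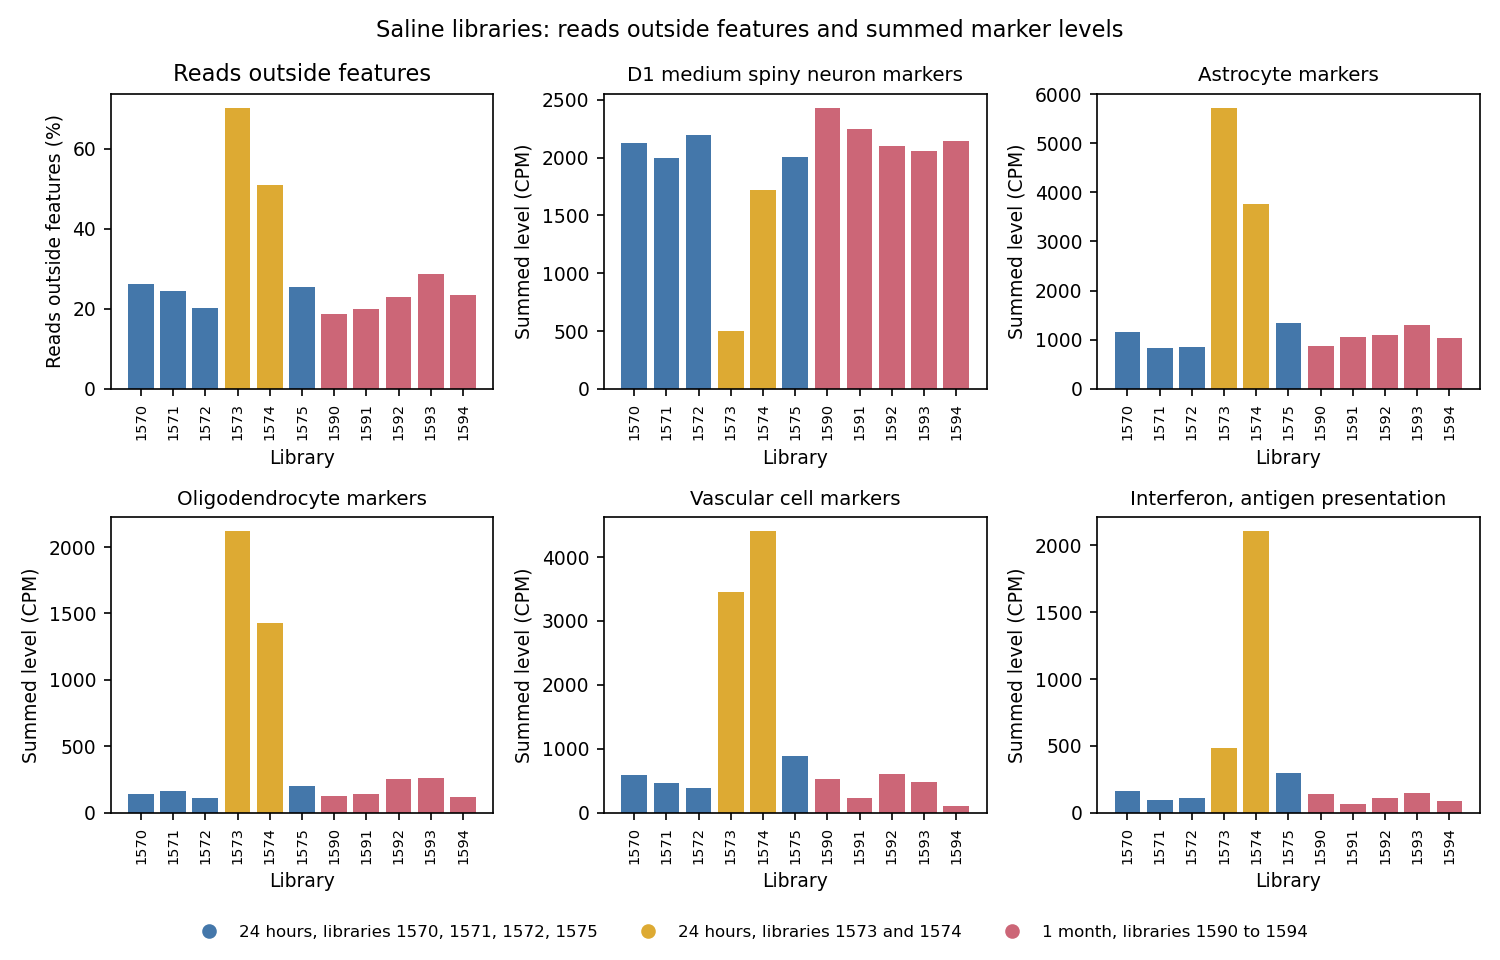
Reads outside features in percent and summed levels of 5 gene lists in CPM (y axes) for each of the 11 saline libraries (x axis), 1 bar per library, with 24-hour libraries in blue, 1573 and 1574 in yellow and 1-month libraries in red. Libraries 1573 and 1574 had the highest reads outside features (70.3% and 51.1%) and the highest astrocyte, oligodendrocyte and vascular sums, and library 1574 the highest interferon sum (2106 CPM).

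Markers of vascular cells, oligodendrocytes, astrocytes, interneurons and microglia had their highest sums in the same pair of libraries. Vascular markers summed to 3457 CPM in library 1573 and 4403 CPM in library 1574, against 389 to 893 CPM in the other 24-hour libraries and 108 to 599.8 CPM at 1 month. Oligodendrocyte markers summed to 2119 and 1425 CPM in the pair, 113 to 200.2 CPM in the other 24-hour libraries and 119 to 262 CPM at 1 month. For astrocyte markers the pair had 5726 and 3763 CPM, and the other 9 libraries lay between 830.2 and 1337 CPM. Interneuron markers had 476 and 275 CPM in the pair and 66.0 to 184 CPM in the rest. In library 1574 Kit alone made up 198 CPM of that sum, and 6 of the 14 interneuron markers had no count there. Other lists had just one of the pair on top. Precursors of oligodendrocytes were at 364 CPM in library 1573 and 72.0 CPM in library 1574, ependymal genes at 46.0 and 1.67 CPM, cortical-type glutamatergic markers at 48.5 and 456 CPM, and choroid plexus genes at 21.6 and 256 CPM. Red blood cell genes were lowest in library 1573, at 40.2 CPM against 155 to 349 CPM in the other 10, and D2 neuron markers were lowest in library 1574, at 473 CPM against 612 to 1126 CPM. D1 neuron markers were lowest in the pair, with 499 CPM in library 1573 and 1723 CPM in library 1574, against 1992 to 2432 CPM in the rest. Most results below are therefore given both with and without the pair.

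Across all genes, 0 of 12739 (0%) passed the adjusted threshold in the 11 libraries. At an unadjusted p under 0.05 stood 757 genes (5.94%), of which 60 (0.471% of those tested) were higher and 697 (5.47%) lower at 1 month. Library 1573 held the highest level of 215 of these lower genes (30.8%; 19.8% of all genes tested) and library 1574 that of 420 (60.3%; 21.3% of all genes tested). Without the pair, 0 of 12838 genes (0%) passed, and 472 (3.68%) had an unadjusted p under 0.05, 135 of them (1.05%) higher and 337 (2.63%) lower. Library 1575 then held the highest level of 236 of the 337 (70.0%; 24.2% of all genes tested). Genes chosen as lower at 1 month mostly have their highest level in a 24-hour library, and each 1-month library held 0 of the 337. The shares of all genes, spread over both groups, are therefore too low a reference for the lower genes in either set. Both fits shared 175 genes, 23.1% of the 757 and 37.1% of the 472. DESeq2 called 92 genes over the 11 libraries, every one lower at 1 month (0.722%). Of these, 29 were highest in library 1573 and 60 in library 1574 (19.8% and 21.3% of all genes tested), with the same limit on that reference. The 92 included 3 of 18 tested vascular, 3 of 13 oligodendrocyte and 2 of 22 interferon genes. They also included 1 of 17 astrocyte, 1 of 6 oligodendrocyte precursor and 1 of 38 synaptic adhesion and perineuronal matrix genes. Over the 9 libraries DESeq2 called 2 genes, both lower (0.0156%), and limma voom called 0 in either set. The median half-width of the 95% interval of a gene's log2 fold change was 1.39 over 11 libraries and 1.01 over 9, and 0.56 and 0.41 for genes above a mean of 8 log2 CPM. For a typical gene, a difference smaller than about that width would not reach an unadjusted p of 0.05. Passing the adjusted threshold would take a larger difference, so larger differences may also have been missed.

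The 10 markers of D1 medium spiny neurons had log2 fold changes of -0.79 to 0.68 with the pair and of -0.52 to 0.28 without it. Drd1, the D1 receptor gene behind the transgene (GRCm38 chromosome 13, 54051183 to 54055705, minus strand), stood at 472, 437, 561 and 599.8 CPM in the 24-hour libraries 1570, 1571, 1572 and 1575, and at 138 and 329 CPM in libraries 1573 and 1574. The 5 libraries at 1 month had 517, 548, 458, 499 and 601 CPM. The groups overlapped, and the pair held the 2 lowest values. The mean was 423 ± 169 CPM at 24 hours (SD, n = 6), 517 ± 75.9 CPM without the pair (SD, n = 4) and 525 ± 53.4 CPM at 1 month (SD, n = 5). The log2 fold change was 0.31 ± 0.30 (SE) over 11 libraries and 0.02 ± 0.16 over 9, with a 95% interval of -0.32 to 0.37 for the latter.

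Prodynorphin, Pdyn, the precursor of dynorphin peptides, was at 302, 315, 419.5 and 379 CPM in the 4 remaining 24-hour libraries, 52.1 and 137 CPM in the pair, and 365, 415, 520.0, 428 and 423 CPM at 1 month. Without the pair the ranges overlapped between 365 and 419.5 CPM. Pdyn had a log2 fold change of 0.68 ± 0.39 with the pair and 0.28 ± 0.17 without it (95% interval -0.08 to 0.65; edgeR adjusted p = 0.998). Tac1, the substance P precursor, ranged from 37.4 to 289 CPM at 24 hours (median 153) and from 197 to 367 CPM at 1 month (median 252). Its difference was 0.62 ± 0.40 with the pair and 0.25 ± 0.26 without, and its ranges overlapped in both sets. Chrm4, the M4 muscarinic receptor gene, was even closer, with 0.22 ± 0.37 and 0.08 ± 0.32. Over the list of 10 D1 markers the median was 0.26 with 6 positive, and 0.05 with 7 positive without the pair. No member had an unadjusted p under 0.05 in either set. The median over all genes tested was -0.07 and -0.02.

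The 10 D2 markers had lower summed levels than the 10 D1 markers in every saline library except 1573 (728 against 499 CPM). These sums cover different genes, so they do not compare how well the cell types were recovered. Among all tested genes of the fixed set, Drd2 had the log2 fold change farthest from 0 in both sets of libraries. Drd2, the D2 receptor gene (chromosome 9, 49340627 to 49408177), was at 85.0, 69.7, 54.5 and 146 CPM in libraries 1570, 1571, 1572 and 1575, at 160.3 and 273 CPM in the pair, and at 90.2, 68.7, 23.6, 38.4 and 16.9 CPM at 1 month. Libraries 1573 and 1574 were the highest of all 11, and 3 of the 1-month libraries were below every 24-hour library. The log2 fold change was -1.47 ± 0.50 with the pair (unadjusted p = 0.00954, edgeR adjusted p = 0.786). Without it the difference was -0.90 ± 0.44 (95% interval -1.82 to 0.02; adjusted p = 0.998). Penk, the enkephalin precursor, had 0.35 ± 0.33 and 0.03 ± 0.22, and Adora2a, an adenosine receptor gene of D2 neurons, -0.63 ± 0.48 and -0.35 ± 0.39. The 10 D2 markers had medians of -0.30 and -0.31, with 4 positive in each set. With the pair 1 member of this list, Drd2, was lower at an unadjusted p under 0.05 (5.47% of all genes tested). Without it no member had such a p.

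Among the 18 markers shared by all medium spiny neurons the median was 0.07 with the pair and -0.05 without it. Ppp1r1b, which encodes the protein phosphatase inhibitor DARPP-32, ranged from 306 to 2701 CPM at 24 hours and from 919.8 to 2043 CPM at 1 month. Its difference was 0.05 ± 0.38 and, without the pair, -0.17 ± 0.26. Rasd2, the striatal small G protein gene also known as Rhes, was at 844 CPM in library 1574 and 654 CPM in library 1575, against 244 to 334 CPM in the other 9. Rasd2 had a log2 fold change of -0.74 ± 0.31 (unadjusted p = 0.0288, edgeR adjusted p = 0.786) and -0.50 ± 0.24 without the pair. The plot of medium spiny neuron genes by library shows these values.

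**Figure D2:**
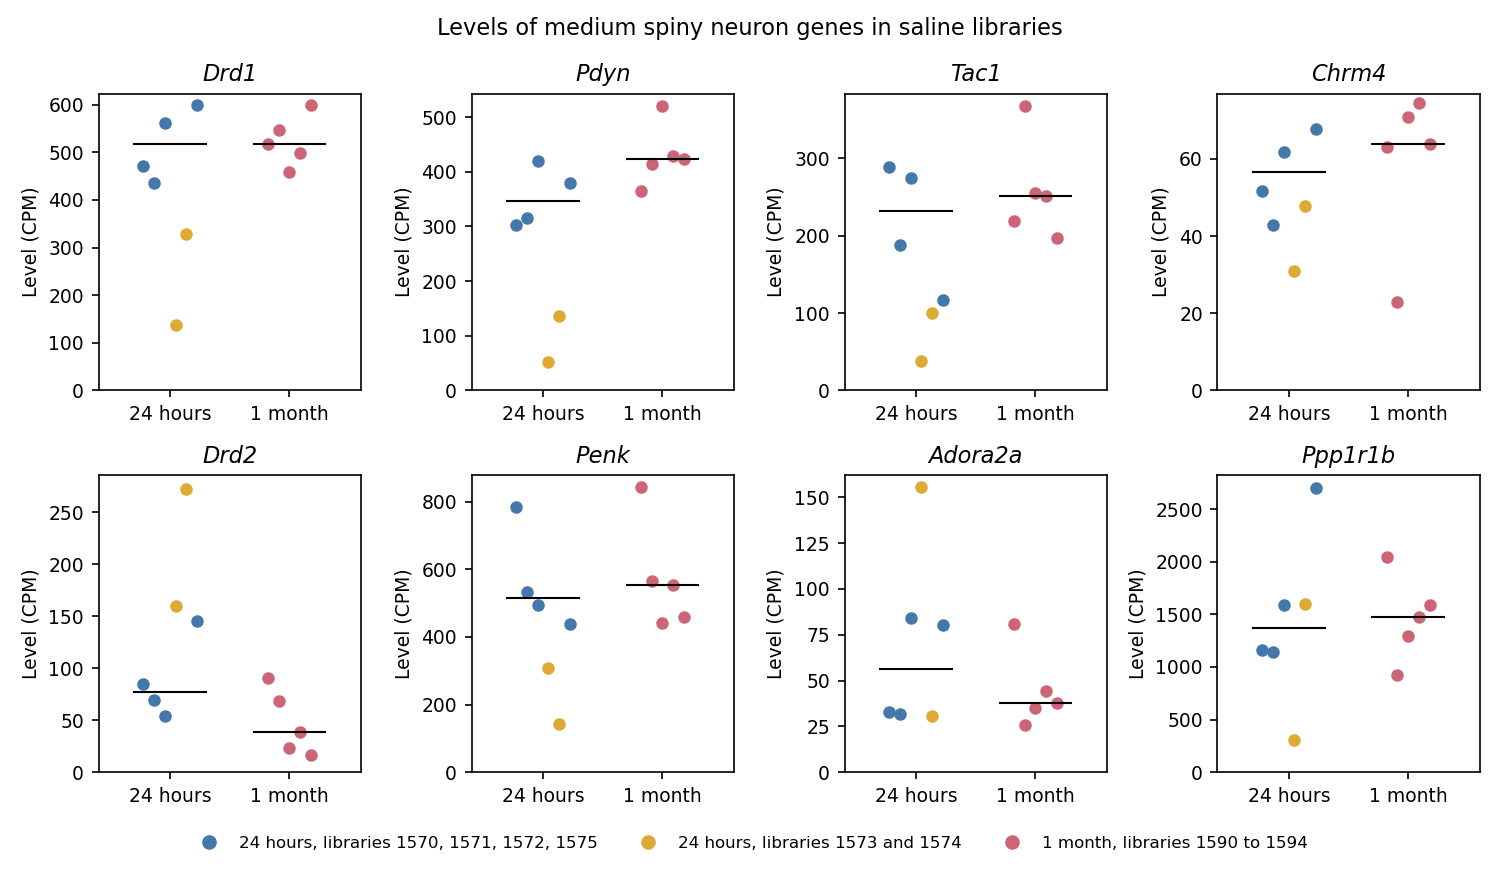
Level in CPM (y axis, from 0) of 8 medium spiny neuron genes in the saline libraries at 24 hours and 1 month (x axis), with 1 point per library and a line at the median of the libraries other than 1573 and 1574. The groups overlap for each of the 8 genes, and libraries 1573 and 1574 have the lowest Drd1, Pdyn and Tac1 and the highest Drd2.

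Immediate early genes are switched on within minutes of neuronal activity, and 1 of the tested members, Npas4, had groups that did not overlap (0.267% of all genes tested were separated on the higher side over 11 libraries and 0.6% over 9). Npas4, an activity-dependent transcription factor gene (chromosome 19, 4984355 to 4990316, minus strand), was at 5.16, 1.17, 7.65 and 1.90 CPM in libraries 1570, 1571, 1572 and 1575, and at 1.39 and 0 CPM in libraries 1573 and 1574. At 1 month it was at 29.9, 23.6, 10.2, 11.3 and 11.4 CPM. Every 1-month library was above every 24-hour library, the pair included. Its log2 fold change was 2.57 ± 0.91 over 11 libraries (unadjusted p = 0.0125, edgeR adjusted p = 0.786) and 2.12 ± 0.65 over 9 (95% interval 0.74 to 3.49; unadjusted p = 0.00491, adjusted p = 0.998). Leaving out each of the 11 libraries in turn gave 2.27 to 3.16.

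Egr3, another activity-induced transcription factor gene, was at 134 to 305 CPM at 24 hours (median 244) and at 266 to 467 CPM at 1 month (median 337). Library 1573 held its lowest value and the groups overlapped. Its difference was 0.63 ± 0.25 (unadjusted p = 0.0257, edgeR adjusted p = 0.786), and 0.40 ± 0.19 without the pair (adjusted p = 0.998). Egr1 did not share this direction in both sets, with 0.20 ± 0.32 and -0.040 ± 0.25. Fos was low throughout, at 0 to 16.6 CPM at 24 hours and 1.83 to 6.10 CPM at 1 month, with library 1573 the highest. Its difference was -0.48 ± 1.06 with the pair and -0.05 ± 0.83 without it. Arc, a synaptic plasticity gene, had 0.14 ± 0.39 and 0.25 ± 0.35. Of 23 genes in the activity list 21 were tested, with 11 positive, a median of 0.14 and 2 higher at an unadjusted p under 0.05 (0.471% of all genes tested). Without the pair 22 were tested, with 14 positive, a median of 0.22 and only Npas4 under that p (1.05% of all genes tested were on that side).

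Clock genes follow the hour of the day, and the labels do not give the hour of sampling. Per1, a clock gene also induced by activity and glucocorticoids, was at 355 CPM in library 1575 and at 100.3 to 157 CPM in the other 24-hour libraries, against 84.9 to 226 CPM at 1 month. Between the times Per1 had a log2 fold change of -0.09 ± 0.36 and, without the pair, -0.26 ± 0.35. Per2 was at 8.0 CPM in library 1574 and 128 CPM in library 1573, the extremes of the 11. Its difference was -0.44 ± 0.49 with the pair and -0.40 ± 0.28 without. Arntl, which encodes the clock activator BMAL1, had 0.77 ± 0.56 and 0.46 ± 0.40, and Dbp, a clock output gene, -0.05 ± 0.80 and 0.24 ± 0.76. The 19 clock genes had a median of 0.16 with 12 positive, and 0.01 with 10 positive without the pair. With the pair no clock gene had an unadjusted p under 0.05. Without it 1 did, Rora at 0.71 (named after its value was seen), beside 1.05% of all genes higher under that p.

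**Figure D3:**
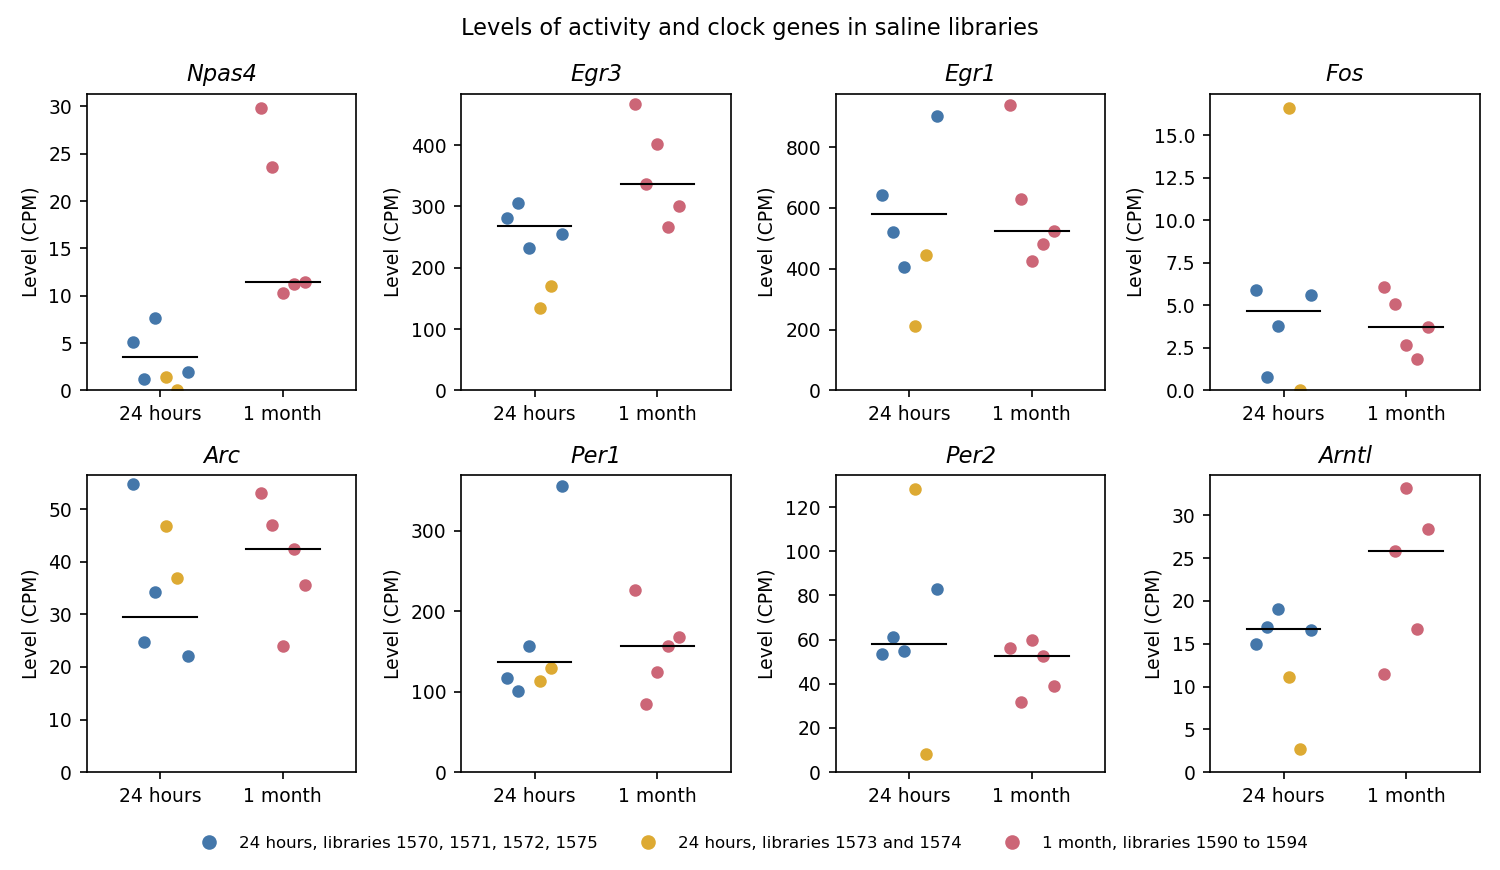
Level in CPM (y axis, from 0) of 5 activity genes and 3 clock genes in the saline libraries at 24 hours and 1 month (x axis), with 1 point per library and a line at the median of the libraries other than 1573 and 1574. Npas4 is the one gene of the 8 whose groups do not overlap, at 0 to 7.65 CPM against 10.2 to 29.9 CPM.

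The 33 genes of dopamine and cAMP signalling had a median of 0.09 with a range of -1.47 to 0.56, and a median of -0.04 without the pair. Pde7b, a cAMP phosphodiesterase gene of this list named after its values were seen, was at 365 to 425 CPM in the 24-hour libraries other than the pair, 148 and 313 CPM in the pair, and 427 to 551 CPM at 1 month. Its groups did not overlap over all 11 libraries (0.267% of all genes tested were separated on the higher side). The difference was 0.56 ± 0.25 with the pair and 0.35 ± 0.16 without (edgeR unadjusted p = 0.0376 and 0.0367). Kcnk2, which encodes the background potassium channel TREK-1, was also separated, at 62.2, 59.8, 65.1 and 49.5 CPM in libraries 1570, 1571, 1572 and 1575, 34.9 and 66.0 CPM in the pair, and 90.7, 76.4, 95.9, 74.1 and 87.6 CPM at 1 month. Kcnk2 had a log2 fold change of 0.59 ± 0.29 and 0.52 ± 0.22 (edgeR adjusted p = 0.858 and 0.998). Of the 39 potassium channel genes, 17 were positive with the pair and 20 without it, with medians of -0.04 and 0.00. They ranged from -2.33 to 1.43 with the pair.

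Gabra4, the GABA-A receptor alpha4 subunit gene, was at 29.1 to 138 CPM at 24 hours and 119 to 193 CPM at 1 month, with the groups overlapping. Its difference was 0.69 ± 0.35, and 0.42 ± 0.25 without the pair. The 22 GABA genes had medians of 0.19 and 0.01, and none had an unadjusted p under 0.05 in either set. Cacna1c, the Cav1.2 calcium channel gene, was at 770.1 CPM in library 1574 and at 168 to 310.3 CPM in the other 10 libraries, and its difference went from -0.70 ± 0.35 to -0.08 ± 0.19 without the pair. The 24 sodium and calcium channel genes had medians of -0.07 and -0.01.

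Shank1 and Bsn, scaffold genes of the postsynaptic density and of the presynaptic active zone, had the smallest unadjusted p of their lists over 11 libraries and were highest in the pair. Shank1 was at 1573 and 1527 CPM in libraries 1573 and 1574 and at 221 to 518 CPM in the other 9 libraries. Its log2 fold change was -1.11 ± 0.47 with the pair and -0.02 ± 0.24 without it. Bsn was at 1219 and 994 CPM in the pair and at 332 to 566 CPM elsewhere, with -0.75 ± 0.29 and -0.24 ± 0.17. The median of 43 tested genes for glutamate receptors and their scaffold was 0.06, and 0.05 over 42 without the pair. For 30 genes of synaptic vesicles and release it was 0.05 and -0.08, and for 38 genes of synaptic adhesion and perineuronal matrix 0.18 and 0.04.

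No gene of the housekeeping and stress lists passed the adjusted threshold in edgeR, as no gene of any list did. Medians with and without the pair were 0.16 and -0.02 for 74 nuclear oxidative phosphorylation genes, 0.17 and 0.05 for 35 proteasome genes, and 0.25 and 0.10 for 16 chaperone genes. They were 0.12 and 0.00 for 19 genes of the unfolded protein response, 0.13 and 0.36 for 11 glucocorticoid-responsive genes, and 0.01 and -0.04 for 30 actin and spine genes. Neuropeptides and their receptors had 0.06 and 0.04 over 20 genes, cholesterol synthesis -0.17 and -0.07 over 24, and histones 0.38 and 0.38 over 7. The 77 cytosolic ribosomal protein genes had a median of -0.31 with 13 positive, and 0.09 with 48 positive without the pair, and they summed to 12005 CPM in library 1573 against 3436 to 5094 CPM in the other 10. Chromatin regulators had -0.34 and -0.19 over 29 genes. With the pair 4 of them were lower at an unadjusted p under 0.05 (5.47% of all genes tested), and 0 without it (2.63%). Mitochondrially encoded genes were not analysed here.

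Markers of vascular cells and of oligodendrocytes were among the lists with the lowest medians, and these were nearer to 0 without the pair. Among vascular markers 17 of 18 tested genes had negative log2 fold changes, 13 with an unadjusted p under 0.05 (5.47% of all genes tested were on that side), and the median was -2.17. Without the pair 17 were again negative, 1 of them under that p (2.63% of all genes), with a median of -0.60. Cdh5, the endothelial VE-cadherin gene, was at 119.8 and 199.97 CPM in libraries 1573 and 1574, at 11.5 to 34.1 CPM in the other 24-hour libraries and at 4.25 to 18.2 CPM at 1 month. Its difference was -2.80 ± 0.79 with the pair and -1.09 ± 0.55 without it. Cldn5, the tight junction gene of the blood-brain barrier and the member under that p without the pair, was highest in library 1575, at 69.9 CPM against 35.8 CPM or less in the other 10. Its difference was -2.65 ± 1.08 with the pair and -2.49 ± 1.07 without.

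Oligodendrocyte markers had a median of -2.26 over 13 tested genes, 6 of them lower at an unadjusted p under 0.05 (5.47% of all genes tested). Without the pair the median was 0.16 over 12 genes, 1 of them higher under that p (1.05% of all genes). Astrocyte markers had -0.90 and 0.25 over 17 genes, with 3 and 14 positive. Precursors of oligodendrocytes had medians of -1.84 and -0.63 over 6 genes, interneurons -0.82 and -0.07 over 9, and cortical-type glutamatergic neurons -0.78 and -0.53 over 6. The part of these cells in the gene differences was not tested.

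Microglia were scarcely represented. Of 14 microglia markers 5 were tested and 6 had no count in at least 6 of the 11 libraries, C1qa in 10 and Tmem119 in 9 of them. Their summed level was 85.1 CPM in library 1573, 35.0 CPM in library 1574 and 0.723 to 34.4 CPM in the other 9. The tested members had a median of 0.00, and 1.25 over 4 genes without the pair. Choroid plexus genes had -1.13 and -0.69 over 3, with Folr1 at 0 in every library and Ttr in 10. Among ependymal genes 1 of 8 was tested, Rsph1, a cilium gene, at 0.83 ± 1.17 and 0.47 ± 1.07, and Tmem212 had no count in any library. Red blood cell genes had -1.40 over 3 tested genes and -0.71 over 2.

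Interferon and antigen presentation genes had the lowest median of any list with at least 3 tested genes. With the pair it was -2.69 over 22 tested genes, of which 21 were negative and 9 had an unadjusted p under 0.05, beside 5.47% of all genes tested. It was -0.90 over 19 genes without it, with 13 negative and 2 under that p, beside 2.63% of all genes. Gbp7, an interferon-induced GTPase gene, was at 52.7 and 99.99 CPM in libraries 1573 and 1574, 15.3 CPM in library 1575, 2.21 to 3.48 CPM in the other 24-hour libraries and 0 to 4.17 CPM at 1 month. Its difference was -3.73 ± 1.21 with the pair and -1.42 ± 1.07 without it. The list summed to 97.1 to 299 CPM in the 24-hour libraries other than the pair and to 61.9 to 148 CPM at 1 month, ranges that overlapped.

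Nuclear and long noncoding RNAs are mostly not translated. They summed to 26465 and 17912 CPM in libraries 1573 and 1574, to 2569 to 7635 CPM in the other 24-hour libraries and to 2066 to 8335 CPM at 1 month. Meg3, an imprinted noncoding RNA of neurons, was at 4858 and 3228 CPM in the pair and at 302 to 1085 CPM in the other 9. Its difference was -1.74 ± 0.61 with the pair and -0.25 ± 0.33 without it, and the 10 tested members had medians of -0.71 and -0.04. The plot of list medians sets both values of each list side by side.

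**Figure D4:**
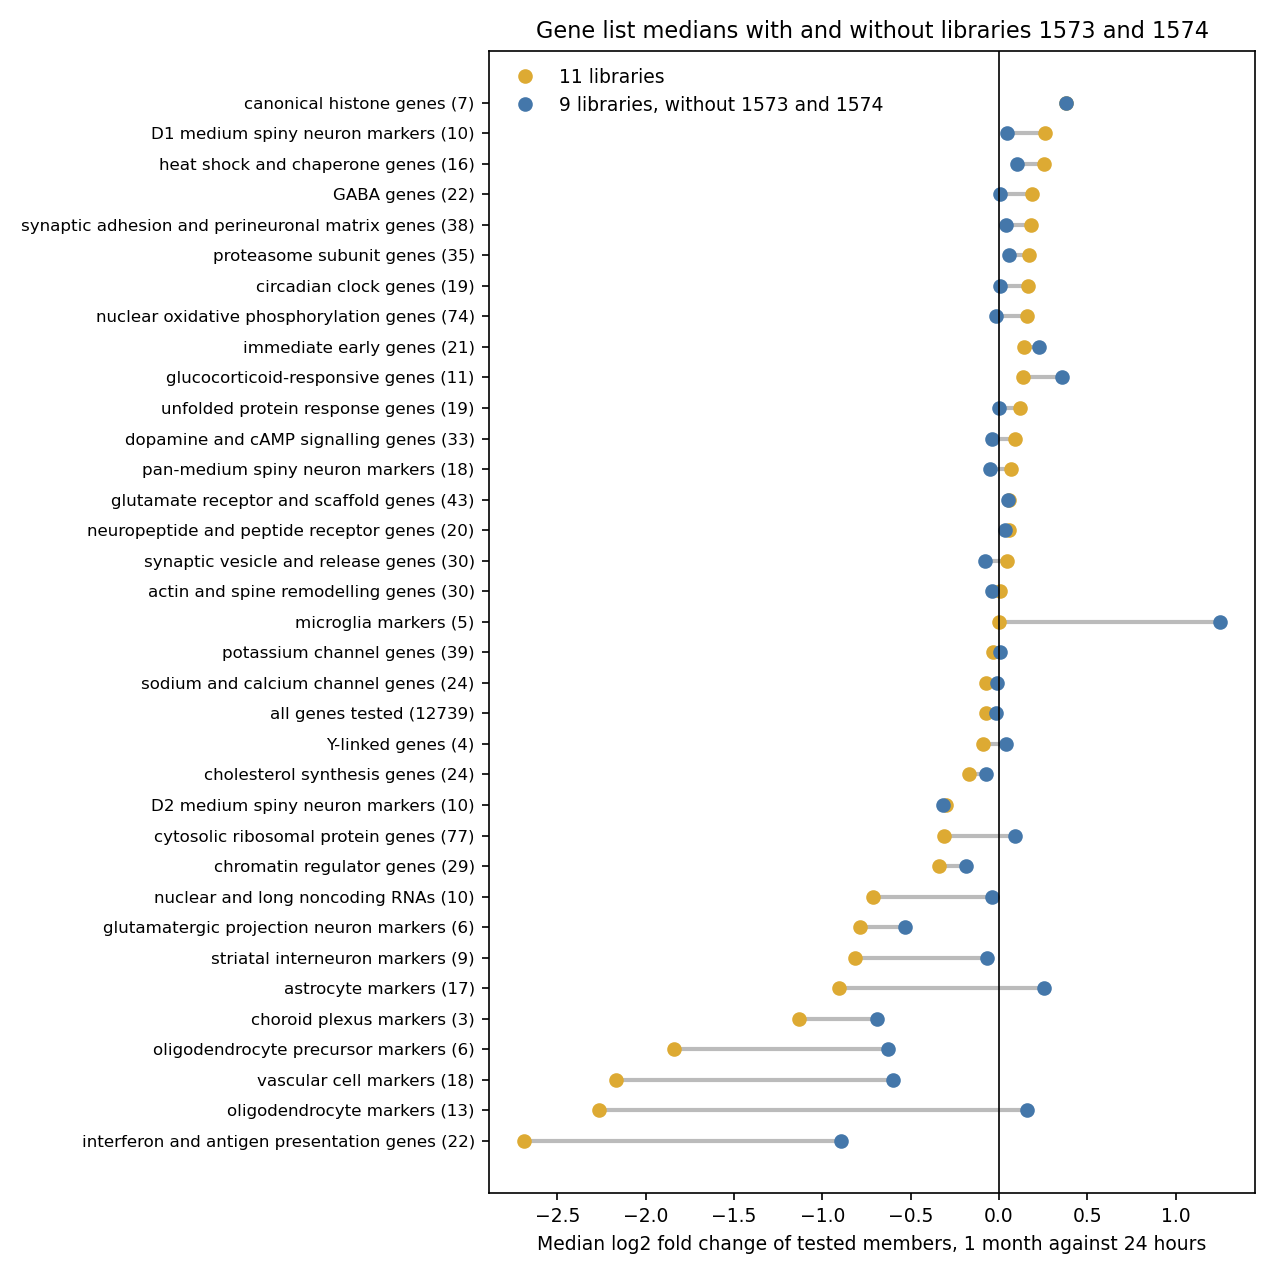
Median log2 fold change at 1 month against 24 hours (x axis) of the tested members of each gene list (y axis, tested members over 11 libraries in brackets), for 11 libraries in yellow and for 9 libraries without 1573 and 1574 in blue, for lists with at least 3 tested genes in both. The interferon, oligodendrocyte, vascular and oligodendrocyte precursor medians lie between -2.69 and -1.84 with the pair and between -0.90 and 0.16 without it.

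The genes with the smallest unadjusted p were mostly low in level on the higher side. Zfp759, a zinc finger gene (chromosome 13, 67121660 to 67141787), was at 1.66 to 6.66 CPM in the 6 libraries at 24 hours and at 22.3, 16.4, 13.1, 12.3 and 7.10 CPM at 1 month. The groups did not overlap (0.267% of all genes tested were separated on the higher side), with library 1594 the lowest at 1 month. Its log2 fold change was 1.95 ± 0.68 with the pair and 1.61 ± 0.56 without (edgeR adjusted p = 0.786 and 0.998). Samd5, a gene for a sterile alpha motif protein, was at 0 to 2.21 CPM at 24 hours and at 4.03, 4.41, 5.65, 4.34 and 13.3 CPM at 1 month. It had 2.62 ± 1.04 and 2.34 ± 0.93, again with no overlap. BC067074, Ccdc51, AB349943 and Fuz, at 1.67 CPM or less in most of the 24-hour libraries, had 3.18 to 3.87 with the pair and 2.65 to 4.03 without it. BC067074 was at 17.9 CPM in library 1590 and had 2.42 without that library (3.61 over all 11). AB349943 was at 21.6 CPM in library 1592 and had 2.03 without it (3.28 over all 11), and Fuz went from 3.18 to 4.46 without library 1572. Zfp46 had 1.00 ± 0.40, and 0.77 ± 0.33 without the pair.

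The higher genes of smallest unadjusted p without the pair included Dcx, Grip1, Gpr101, Nxph1, Fam53b and Mok. Dcx, the doublecortin gene of young neurons, was at 14.96, 26.5, 55.2 and 25.7 CPM in libraries 1570, 1571, 1572 and 1575, 50.7 and 47.5 CPM in the pair, and 118, 62.1, 47.4, 42.0 and 72.8 CPM at 1 month. The groups overlapped, and library 1590 was the highest. Its log2 fold change was 1.16 ± 0.40, and 0.90 ± 0.42 with the pair (edgeR adjusted p = 0.998 and 0.833). Grip1, a gene for a scaffold protein that binds AMPA receptors, had 1.28 ± 0.40 and 0.98 ± 0.46, and the orphan receptor gene Gpr101 had 0.96 ± 0.30 and 1.44 ± 0.71. Fam53b had 1.32 ± 0.44 without the pair and 0.49 ± 0.63 with it, and Mok 1.44 ± 0.49 and 1.79 ± 0.82. Nxph1, which encodes the neurexin ligand neurexophilin, had 2.46 ± 0.83 and 1.08 ± 0.90. Its level was 63.3 CPM in library 1591 and 5.13 to 8.0 CPM in the other 1-month libraries, and over the 11 libraries its difference was -0.33 without library 1591.

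On the lower side, Cspg4 had the smallest p of all genes over 11 libraries. The gene encodes the NG2 proteoglycan of oligodendrocyte precursors and pericytes (chromosome 9, 56865033 to 56899870). Its level was 22.7, 15.1, 7.89 and 67.0 CPM in libraries 1570, 1571, 1572 and 1575, 131 and 56.8 CPM in the pair, and 4.75, 2.21, 3.47, 6.75 and 1.52 CPM at 1 month. Every 1-month library was below every 24-hour library, the closest being 6.75 and 7.89 CPM (0.149% of all genes tested were separated on the lower side). The log2 fold change was -3.74 ± 0.75 over 11 libraries (unadjusted p = 0.00014, edgeR adjusted p = 0.786) and -2.92 ± 0.64 over 9 (unadjusted p = 0.00033, adjusted p = 0.998). DESeq2 called this gene in both sets, with adjusted p of 7.2e-05 and 0.014, and it was the one gene it called in both.

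Flna, Zak and Mob1a were highest in library 1573 or 1574 over all 11. Flna, the actin crosslinker filamin A, was at 8.01 to 51.0 CPM at 24 hours (median 38.0) and 2.53 to 11.8 CPM at 1 month (median 3.78), with the highest values in libraries 1573 and 1575. Its difference was -2.48 ± 0.64 with the pair and -2.23 ± 0.60 without. Zak, a stress-activated kinase gene, was at 307 and 144 CPM in the pair, 42.4 to 70.7 CPM in the other 24-hour libraries and 15.1 to 35.6 CPM at 1 month. Its groups did not overlap (0.149% of all genes tested were separated on the lower side), with -2.05 ± 0.53 and -0.97 ± 0.32. Mob1a, a Hippo pathway gene, was at 116 CPM in library 1574 and 36.0 CPM in library 1573, 3.55 to 10.2 CPM in the other 24-hour libraries and 0.0807 to 2.08 CPM at 1 month. It had -4.52 ± 1.07, and -2.37 ± 0.91 without the pair.

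The remaining named lower genes over 11 libraries, Prom1, Adgrf5, Heg1 and Iqgap1, had log2 fold changes of -2.95 to -2.25 with the pair and -1.69 to -1.30 without it. Of those named without the pair, Slc4a2, an anion exchanger gene, was at 73.1 CPM in library 1575 and at 7.38 CPM or less in the other 10. Over 11 libraries it had -3.10 ± 1.20, and -1.09 without library 1575. Sufu, a repressor of hedgehog signalling, was at 114 CPM in library 1575, 4.83 to 67.1 CPM in the other 24-hour libraries and 14.4 to 23.4 CPM at 1 month. It had -1.65 ± 0.42 without the pair and -1.31 ± 0.61 with it. AK038985, the other gene DESeq2 called over 9 libraries (adjusted p = 0.0039), was at 38.99, 8.37, 4.42 and 17.4 CPM in libraries 1570, 1571, 1572 and 1575, 16.9 and 0 CPM in the pair, and 0.888 to 2.12 CPM at 1 month.

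**Figure D5:**
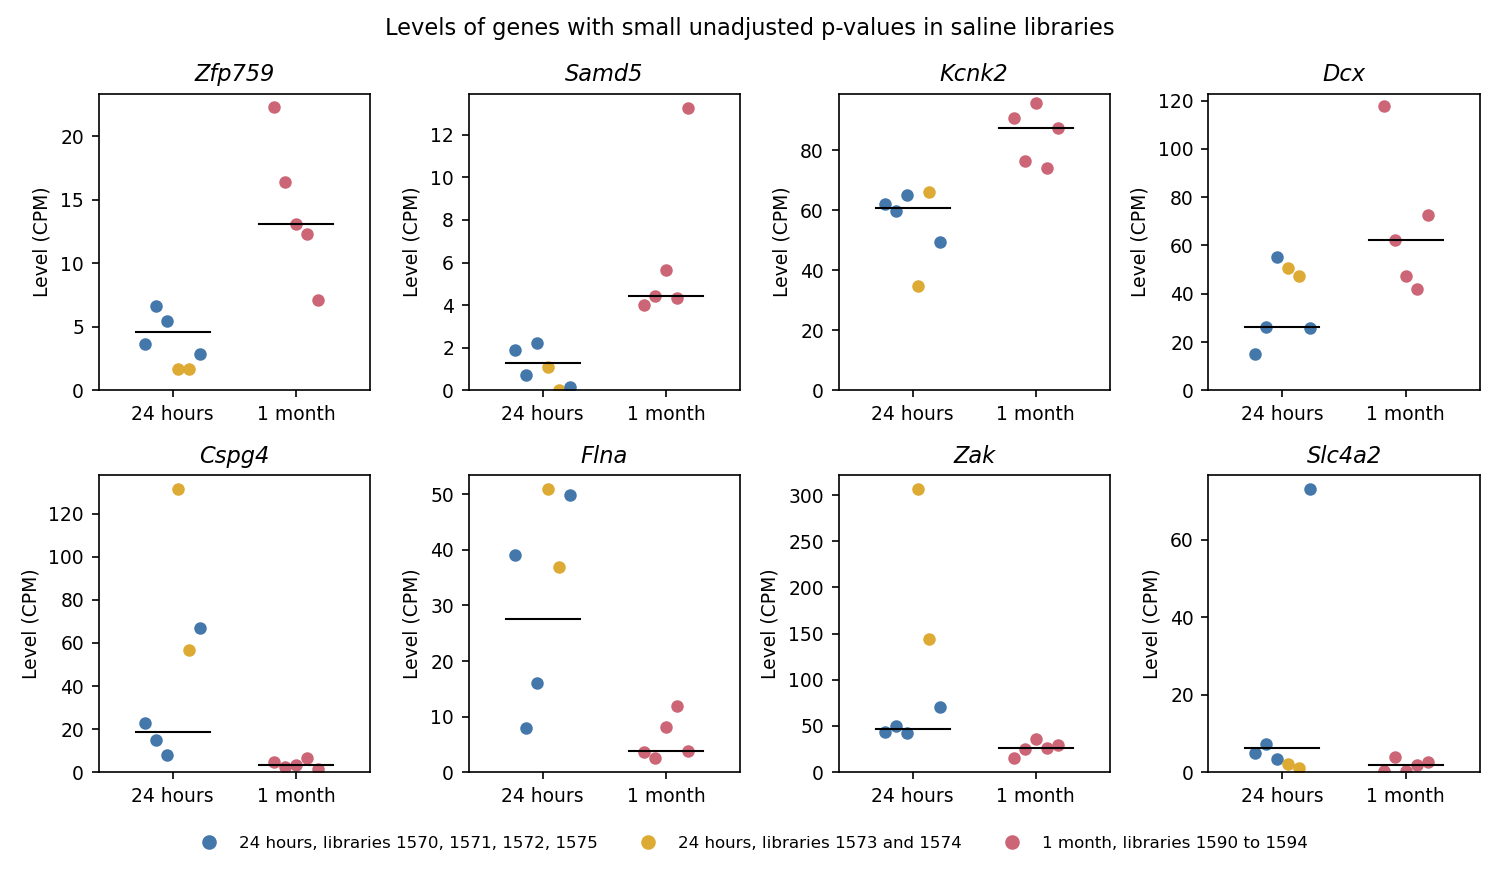
Level in CPM (y axis, from 0) of 8 genes with small unadjusted p-values, 4 higher and 4 lower at 1 month, in the saline libraries at 24 hours and 1 month (x axis), with 1 point per library and a line at the median of the libraries other than 1573 and 1574. Zfp759, Samd5, Kcnk2, Cspg4 and Zak have no overlap between the groups, and Slc4a2 is highest in library 1575 at 73.1 CPM.

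Groups that did not overlap were few. Over 11 libraries this held for 34 higher (0.267%) and 19 lower genes (0.149%), and over 9 libraries for 77 higher (0.600%) and 65 lower genes (0.506%). With interchangeable labels a gene would be separated in either direction with a probability of 0.00433 over 11 libraries and 0.0159 over 9. The shares of both directions together were no larger, so no excess of separated genes over chance is claimed. Because the 9 libraries are part of the 11, separation over 11 libraries also holds over 9. Of 12739 genes tested, 20 were separated over 11 libraries with an edgeR unadjusted p under 0.05 in both sets, 10 higher and 10 lower. They included Npas4, Zfp759, Samd5 and Pde7b among the higher and Cspg4, Zak and Mob1a among the lower.

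The saline difference was last set against that of the cocaine groups over the same times, in a fit over 39 libraries. The nonescalating library 1595, with hardly any counts, was left out. No gene of 15579 (0%) had an adjusted p under 0.05 for the difference between the time changes of saline and nonescalating mice, and 1526 (9.80%) had an unadjusted p under 0.05. Without libraries 1573 and 1574 the latter count was 920 of 15426 (5.96%). Against escalating mice 0 genes (0%) passed, with 770 (4.94%) at an unadjusted p under 0.05 and 653 (4.23%) without the pair.

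Npas4, Dcx and Cspg4 are described here with the saline values that led to their being named, so the tests below are not independent of that choice. Saline values are without the pair, and the first p-values of each gene come from a fit over 37 libraries without it. Cocaine values and the p-values with the pair come from the fit over 39 libraries. Npas4, at 2.12 log2 in saline without the pair, stood at -0.38 ± 0.61 in nonescalating and -0.28 ± 0.90 in escalating mice. The test of these differences gave unadjusted p of 0.0194 and 0.0522 (edgeR adjusted p = 0.787 and 1), and 0.00598 and 0.0262 with the pair. Dcx, at 1.16 in saline, had -0.64 ± 0.27 and -0.79 ± 0.39 in the cocaine groups (unadjusted p = 0.00032 and 0.00069, adjusted p = 0.728 and 1; 0.00076 and 0.00193 unadjusted with the pair). Cspg4, at -2.91 in saline in the fit over 37 libraries, had -0.43 ± 0.53 and -1.32 ± 0.80 (unadjusted p = 0.0115 and 0.153, and 0.00105 and 0.0317 with the pair). Drd1 was at 0.02 in saline, 0.04 ± 0.16 in nonescalating and 0.22 ± 0.23 in escalating mice, and Kcnk2 at 0.52, 0.34 ± 0.21 and 0.50 ± 0.31. List medians in the nonescalating and escalating mice were 0.12 and -1.13 for vascular markers, 0.24 and -1.42 for interferon genes, and 0.10 and 0.05 for D1 markers.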

How the data were processed

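Ribosome-bound RNA was sequenced from 11 saline libraries (24 hours, n = 6; 1 month, n = 5). The authors deposited raw whole-number counts for each gene symbol in every library. STAR 2.0.0e, HTSeq and the build mm10 are named in the submitters' processing notes. Strand setting, annotation and HTSeq version were not given in the sources used here, so antisense, overlapping or near-identical genes (ribosomal protein and class I histocompatibility genes among them) may share reads. Each file lists 32531 symbols. HTSeq's 5 summary lines, and a row called unknown with 1 count or fewer, were dropped before totals were taken.

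Counts were fitted with edgeR 4.0.16 under R 4.3.3 (filterByExpr with a minimum count of 10, TMM scaling, robust quasi-likelihood F test, two-sided), over 11 libraries and over 9 without libraries 1573 and 1574. Benjamini-Hochberg adjustment covered every gene tested, with a threshold of 0.05. Standard errors were taken from the log2 fold change and the F statistic, and intervals are 95%. Differences between time changes came from a fit of all groups over 39 libraries, and over 37 without libraries 1573 and 1574. Alternatives used DESeq2 1.42.0 and limma 3.58.1. The fits were tested on simulated counts, with the same spread beyond sampling noise for every gene and no libraries that stood apart. That test does not show how the fits behave with libraries such as 1573 and 1574. Levels are CPM with TMM totals of the 11 libraries.

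Named genes were the 8 higher and 8 lower genes of smallest p in each fit (predicted symbols were passed over, which skipped 1), a fixed set of neuronal, activity, clock and sex-linked genes with Rn45s, and the member of smallest p of each gene list. Some genes that this rule named are not reported here. Of the 73 others, 69 had a single GENCODE model in GRCm38, the assembly of mm10. Groups follow the labels, but this comparison, the pair left out, the gene lists and the named genes were chosen with earlier results of these data known. Counts of 25 pairs of libraries within a group differed beyond sampling noise (chi-square per gene 33.0 to 309), so none repeats the counts of another. Libraries that share animals would not be found this way. Each library was counted once. The alternatives changed the scaling, the filter, the tool, the libraries in the fit and the replicate block. Mitochondrially encoded genes were not analysed here.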

Additional observations from a re-analysis of the deposited data

Results flagged for a closer look

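Of 156 groups of values of the named genes and library measures, 28 held a highest or lowest library whose gap to the nearest other took up more of the range than Dixon's 95% limit. For normally distributed values chance would give about 1 in 20. CPM values of genes named partly by their p in these libraries need not follow that, so no excess over chance is claimed. Of the 28, library 1574 held 9 and library 1573 held 5.

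At 24 hours library 1574 stood alone with Mob1a at 116 CPM, the stem cell factor receptor gene Kit at 198 CPM, the cortical transcription factor gene Neurod2 at 118 CPM and the myelin tight junction gene Cldn11 at 94.0 CPM. The same library had F5 at 134 CPM, Sstr3 at 148 CPM, Cacna1c at 770.1 CPM and the matrix proteoglycan gene Vcan at 179 CPM. Ndufa3, a subunit gene of respiratory complex I, was at 171 CPM there. Library 1573 stood alone with Fam53b at 45.7 CPM, Nxph1 at 28.8 CPM, Fos at 16.6 CPM, Xist at 14.1 CPM and the ribosomal protein gene Rps15 at 1073 CPM.

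Among the other 24-hour libraries, 1575 stood alone with Pola2 at 29.6 CPM, Slc4a2 at 73.1 CPM and Per1 at 355 CPM. Library 1572 had Ccdc51 at 0.946 CPM and Rsph1 at 8.28 CPM.

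At 1 month library 1590 stood alone with BC067074 at 17.9 CPM and Kit at 17.2 CPM, library 1591 with Nxph1 at 63.3 CPM, Gabra4 at 193 CPM and a low Chrm4 at 22.9 CPM. Library 1592 had AB349943 at 21.6 CPM, library 1593 Xist at 2.83 CPM, and library 1594 Samd5 at 13.3 CPM and a total of 33932469 counts.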

How the results depend on the processing

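No gene passed the adjusted threshold in the 11-library comparison under DESeq2 size factors, no filter on low counts, limma voom with and without quality weights, Rn45s left out, the fit over 39 libraries, the replicate block or any library left out, while DESeq2 called 92. Genes at an unadjusted p under 0.05 went from 757 to 2156 without the filter, 382 with voom quality weights, 2028 in the fit over 39 libraries, 399 with the replicate block, 472 without libraries 1573 and 1574, and 487 to 956 with each library left out. The lowest of these were 487 without library 1591 and 494 without library 1594.

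Over 9 libraries the unfiltered fit called 1 gene, Rslcan18 (named after its value was seen), and DESeq2 called 2. Genes at an unadjusted p under 0.05 went from 472 to 1374 without the filter, 908 in the fit over 37 libraries, 388 with the replicate block, and 334 to 889 with each library left out, the highest without library 1572. Samples of the same replicate number correlated from -0.091 to 0.229 in their deviations from the group means. Of 5 such pairs 1 was above 0.1, and 2 of 5 were best with their own number. So few pairs cannot settle whether the numbers pair the samples, and the main fits treat them as unpaired.

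Genes at an unadjusted p under 0.05 for the difference from nonescalating mice went from 1526 to 920 without the pair and 2527 without the filter, and 1231 to 1951 with each library left out. Against escalating mice they went from 770 to 456 with voom and 1492 without the filter, and 627 to 1050 with each library left out. In no setting run for these 2 differences did a gene pass.

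Signs turned for some named genes, near 0 or not: Fos was 0.63 with voom, 0.19 with voom quality weights and 0.67 with the replicate block, and Egr1 -0.040 without the pair. Per1 was 0.16 with voom quality weights and 0.24 with the block, and Dbp 0.087 with voom, 0.55 with quality weights and 0.24 without the pair. With voom quality weights Cldn11 was 0.46 (-5.41 in edgeR), Alas2 0.81 (-1.72), Shank1 0.066 (-1.11) and Rps15 0.056 (-1.52). Without the pair Ndufa3 was 0.12 (-1.01 with it). With each library left out, Nxph1 spanned -0.33 to 1.98, Fos -0.75 to 0.27, Egr1 -0.00081 to 0.43, Per1 -0.26 to 0.30, Dbp -0.34 to 0.34, Ddx3y -0.25 to 0.0024 and Rn45s -0.055 to 0.26. Within these ranges Per1 was 0.081 without library 1591, Dbp 0.028 without 1575, 0.22 without 1591 and 0.17 without 1592, and Rn45s -0.019 without 1570 and -0.039 without 1573. The cause of these moves was not tested. Low counts limit genes under 2 log2 CPM most, where the median half-width of the interval was 2.69 over 11 libraries.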
